A study of Mus musculus with 16 samples.

Results

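Tlr2 and the other innate pattern recognition genes were chosen by name, as the genes Tlr1, Tlr2, Tlr6, Tlr7, Tlr8, Tlr9, Nod1, Nod2, Myd88 and Irak3 where they occurred among the deposited tables. Of these 10 names, 9 were found, among 5171 distinct genes in all, and Irak3 was not analysed here. The RNA came from whole colon of male C57BL/6 mice, either wild type (WT) or lacking Smarcad1, an ATP-dependent chromatin remodelling factor, in their intestinal epithelium (Smarcad1-KO). The knockout allele came from a single targeted line in which loxP sites flank exons needed for ATP binding, and it was deleted by Cre under the villin promoter, which is active in epithelial cells of the gut and not in the immune, stromal or muscle cells that whole colon also holds. The control mice were not given dextran sulphate (DSS), which injures the lining of the colon, while the colitis mice received 1% DSS in the drinking water for 15 days. Mice of all 4 groups had been given an enriched microbiota from C57BL/6 donor females of another facility, starting 2 weeks before colitis induction. Each genotype had 3 control and 5 colitis libraries. Age was not given in the sources used here.

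Toll-like receptors (TLRs) are membrane proteins that bind conserved microbial molecules. TLR2 sits at the cell surface, where it pairs with TLR1 to detect triacylated bacterial lipopeptides or with TLR6 to detect diacylated ones. TLR7, TLR8 and TLR9 act in endosomes and detect nucleic acids, while NOD1 and NOD2 are cytosolic sensors of fragments of bacterial peptidoglycan. MyD88 is the adaptor that links nearly every TLR to kinases and on to the transcription factor NF-κB. In the gut these receptors are carried by macrophages, dendritic cells and neutrophils as well as by epithelial cells, which meet the microbiota first.

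The values were the authors' group means of log2 RPM, the reads of a gene per 1 M reads of the library, and single libraries were not used. The means carry no spread between mice and allow no test of a difference. A gene was called changed in a comparison where it was listed in the authors' table of that comparison, which holds genes past an adjusted p of 0.05 in DESeq2. The intervals given below are 95% intervals for counting error, computed from the number of reads behind each mean, and they do not cover differences between mice. The libraries held 8.005 M to 10.1 M reads as the geometric mean of a group, so that 3 reads per library, taken as the floor, stood at −1.75 to −1.42 log2 RPM. All 9 genes lay above this floor in every group. Smarcad1 itself, at 5.77 log2 RPM in WT control and 5.68 in WT colitis, was at 4.59 and 4.55 in the matching KO groups, and it was listed as lower in both comparisons. The tissue is labelled colon, although the text of the series speaks of small intestinal tissue. Of 10 colon region markers 6 had values, and Car1, Car4, Aqp8 and Cyp2c55 were at 9.36 to 11.7 log2 RPM in all groups, while Slc37a2 and Ang4 lay between 3.97 and 8.96. Of 14 small intestine markers 3 had values. Fabp6, a bile acid binding protein of the ileum, was at 1.22 to 3.11. Fabp2 and Mep1a, which serve fatty acid and peptide handling, were at 7.86 to 9.96, so these markers alone do not settle the tissue. The labels were followed, and the methods of the study also name the central part of the colon as the tissue taken.

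Among the 9 genes, Tlr2 alone was listed between the genotypes, so the bases before its start are shown beside those of its partner receptors. Tlr2 lies on chromosome 3 from 83836272 to 83841767 on the minus strand (GRCm38), with 3 exon blocks of 3014 bases in all. Tlr1 (chromosome 5, 64924679 to 64933563) and Tlr6 (chromosome 5, 64952031 to 64960097) are neighbours on the minus strand, 18.5 kb apart. Tlr7 (chromosome X, 167304929 to 167330558, minus strand) and Tlr8 (chromosome X, 167242696 to 167264329, minus strand) are also neighbours, 40.6 kb apart. The remaining members are Tlr9 (chromosome 9, 106222598 to 106226883, plus strand), Myd88 (chromosome 9, 119335934 to 119341411, minus strand), Nod1 (chromosome 6, 54923949 to 54972612, minus strand) and Nod2 (chromosome 8, 88647315 to 88688474, plus strand). All are protein-coding genes, and their positions in the tables equal those of the annotation. The bases shown are those of the RefSeq promoter windows (GRCm38.p6) that lie before every annotated start of the gene, each read 5′ to 3′ on the strand of the gene, with a match to the NF-κB consensus in capitals. They cover chr3:83841768-83841858 for Tlr2, chr5:64933564-64933808 for Tlr1 and chr5:64960098-64960298 for Tlr6, all on the minus strand.
Tlr2: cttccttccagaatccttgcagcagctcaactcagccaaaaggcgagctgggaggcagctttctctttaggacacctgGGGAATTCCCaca
Tlr1: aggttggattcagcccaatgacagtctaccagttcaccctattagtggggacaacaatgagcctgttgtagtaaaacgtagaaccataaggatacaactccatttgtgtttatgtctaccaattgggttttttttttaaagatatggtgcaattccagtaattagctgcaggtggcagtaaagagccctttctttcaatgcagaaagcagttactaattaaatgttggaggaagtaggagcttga
Tlr6: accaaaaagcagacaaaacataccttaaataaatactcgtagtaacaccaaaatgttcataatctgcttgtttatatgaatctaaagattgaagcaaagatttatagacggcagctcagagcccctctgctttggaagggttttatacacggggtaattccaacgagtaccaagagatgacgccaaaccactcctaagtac

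Windows of 300 bases, 250 before and 50 after the start, were searched on both strands for 3 motifs. These were the NF-κB consensus by name, TGANTCA of AP-1, and GAAA followed after any 2 bases by a further GAAA, as interferon regulatory factors bind. Of the 10 names 9 had a window, and Tlr7, which had none, was not searched. Among the members with a window, Tlr2 alone had an NF-κB match, GGGAATTCCC. It reads the same on both strands and lies 172 bases before the RefSeq start. Such a match was present in 5.80% of all 32851 windows. Of the 2 windows of Tlr6, the window not shown above held 2 overlapping matches of this repeated GAAA, and the window shown held none. The window of Myd88 held 1 match. Neither matching window had a base before the first annotated start of its gene. This repeat was present in 3.44% of all windows and for 3.99% of genes with a window. Tlr9 had TGANTCA, which 7.81% of windows share. A match describes the letters of these windows and does not show that a factor binds there.

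Tlr2 was lower in Smarcad1-KO colon than in WT colon, both without and with colitis, and by the same factor. In control its mean was 5.20 log2 RPM for WT and 4.50 for KO, and with colitis 6.24 for WT and 5.54 for KO, or 36.8, 22.6, 75.7 and 46.5 RPM. These means rested on 372, 221, 606 and 458 reads per library in the same order. Each KO group was thus below the WT group of the same treatment, and KO colitis stood only slightly above WT control. The KO minus WT difference was −0.70 in control (counting interval −0.84 to −0.56) and −0.70 in colitis (−0.78 to −0.63), which is 1.63-fold lower in each. Tlr2 was listed as lower in control, as were 0.367% of the genes in the tables, and it was not listed in colitis, where 0.387% were listed as lower. Over all genes in the tables the median difference was 0.00 in control and −0.01 in colitis. In both conditions, 51 of the 5171 genes were lower in KO by 0.5 or more, Tlr2 among them. Of the 19 genes listed as lower in KO control, 6 had a larger decrease than Tlr2, Smarcad1 among them. In colitis 11 of the 20 genes listed as lower had a larger decrease. Of all 5171 genes, 87 had a larger decrease than Tlr2 in control and 307 in colitis. In whole tissue, fewer cells that express Tlr2 and less Tlr2 RNA per cell cannot be told apart.

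**Figure D1:**
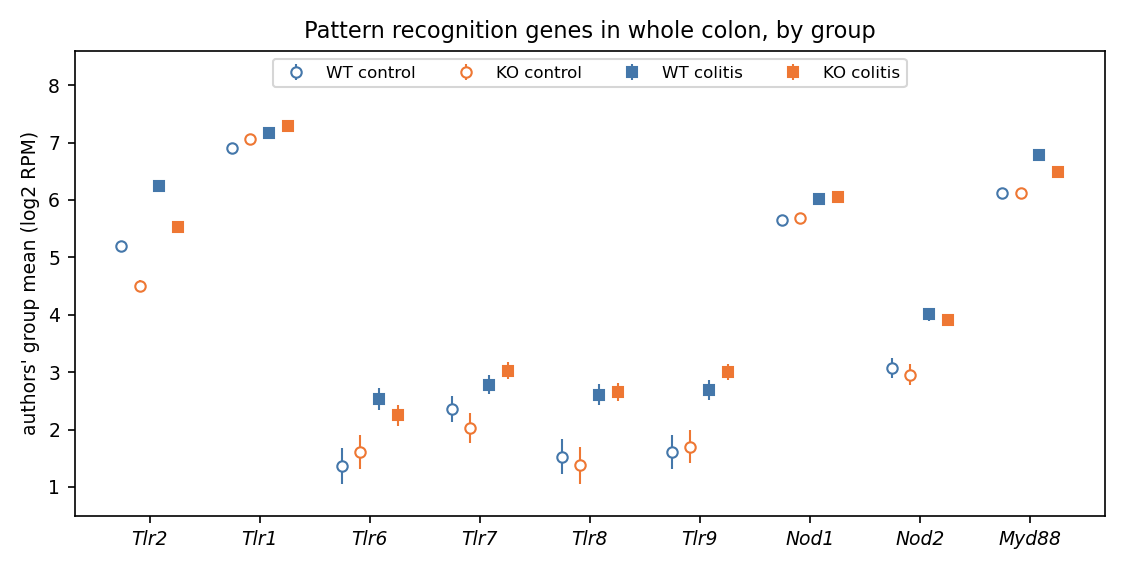
Authors' group means (log2 RPM, vertical axis) of the 9 genes in WT (blue) and Smarcad1-KO (orange) colon, open circles for control and filled squares for colitis, with 95% counting intervals (no spread between mice). Tlr2 goes from 5.20 to 4.50 between the control genotypes and from 6.24 to 5.54 between the colitis genotypes.

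The other 8 genes were not listed in either comparison of genotypes, and no member was listed as higher, beside 0.522% of the genes in control and 0.696% in colitis. Tlr1, the partner of TLR2 for triacylated lipopeptides, had control means of 6.90 log2 RPM for WT and 7.06 for KO, a difference of 0.15 (0.09 to 0.22), and the difference in colitis was 0.11 (0.06 to 0.16). Tlr6, the partner for diacylated lipopeptides, was much scarcer, with control means of 1.37 and 1.61. It differed by 0.25 (−0.19 to 0.68) in control and by −0.28 (−0.55 to −0.02) in colitis, so that the sign was not the same in both conditions. Neither partner therefore shared the size of the Tlr2 difference in both conditions. Exons of Tlr1 and Tlr6 share sequence, since 7.89% of the 100-base stretches of Tlr1 and 7.09% of those of Tlr6 occur in the other gene, and reads from such stretches are not unique.

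The endosomal receptors had differences of both signs in control and positive ones in colitis. For Tlr7 the KO minus WT difference was −0.33 (−0.68 to 0.01) in control and 0.25 (0.02 to 0.47) in colitis, and for Tlr8 it was −0.15 (−0.59 to 0.30) and 0.05 (−0.19 to 0.29). Tlr9 differed by 0.10 (−0.32 to 0.51) in control and by 0.32 (0.09 to 0.54) in colitis. The peptidoglycan sensors were close between genotypes, with 0.03 for Nod1 in each condition and −0.11 for Nod2 in each condition, all within counting error. Myd88 had the same mean in both control groups, 6.13 log2 RPM, and differed by −0.29 (−0.35 to −0.23) in colitis. Of the 9 genes, Tlr2 was the only one lower by 0.5 or more in KO control and the only one in KO colitis, against 3.46% and 10.3% of all genes in the tables. No member was higher by 0.5 or more in KO, against 4.04% of all genes in control and 5.43% in colitis.

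**Figure D2:**
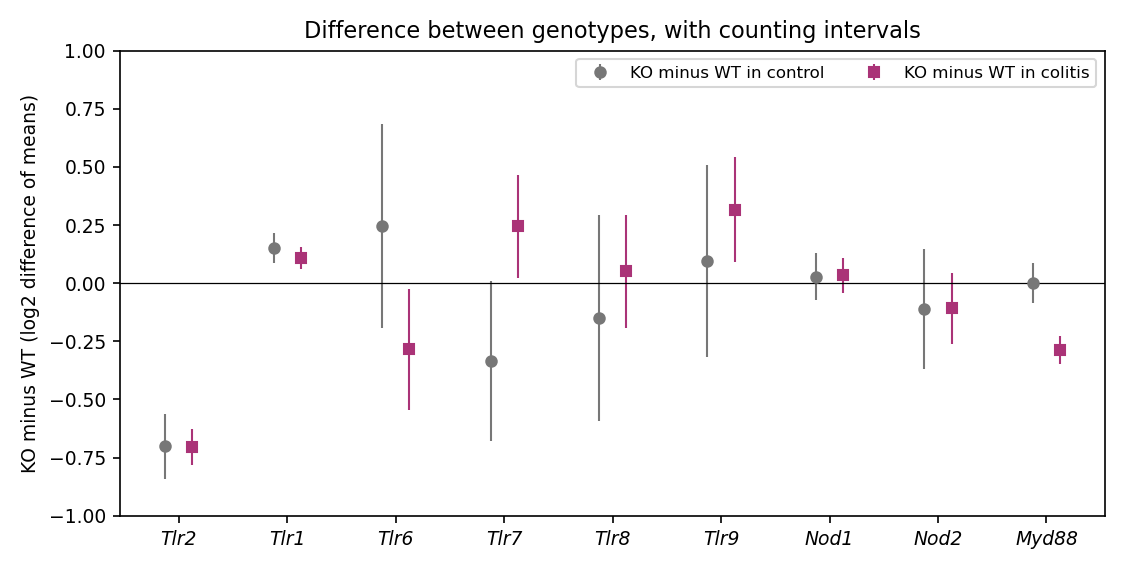
KO minus WT difference of the authors' means (log2, vertical axis) for each gene, in control (grey circles) and colitis (purple squares), with 95% counting intervals. Tlr2 is at −0.70 in both conditions, and the other 8 genes lie between −0.33 and 0.32.

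Colitis brought higher means of every member in both genotypes. In WT, 8 of the 9 genes were listed as higher, beside 36.6% of all genes in the tables, and in Smarcad1-KO all 9 were, beside 44.8%. These shares are of genes that passed at least 1 of the 4 comparisons, and the members were found by the same condition. Both genotypes had a median change of 0.94 over the 9 genes, beside 0.13 and 0.19 over all genes in the tables. Changes of 1 or more were seen for Tlr2, Tlr6, Tlr8 and Tlr9 in WT and for Tlr2, Tlr7, Tlr8 and Tlr9 in KO, where 18.4% and 16.0% of all genes were higher by as much. No member was listed as lower, beside 26.4% of all genes in WT and 33.6% in KO. The genotype comparisons and the colitis comparisons use the same groups, so their values are given side by side only.

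Tlr2 rose 2.06-fold in WT, by 1.04 (0.94 to 1.14), and 2.05-fold in KO, also by 1.04 (0.91 to 1.16). Relative to the median of all genes, the rise was 0.91 in WT and 0.85 in KO. The rise in KO minus that in WT was −0.00 (−0.16 to 0.16). Tlr1 rose by 0.27 (0.21 to 0.33) in WT and by 0.22 (0.17 to 0.28) in KO, the smallest changes among the members, and relative to the median of all genes these were 0.14 and 0.03. Tlr6 rose from 1.37 to 2.53 log2 RPM in WT, 2.25-fold, and from 1.61 to 2.25 in KO, 1.55-fold, on 26.1 to 46.9 reads per library. Its response differed between genotypes by −0.53, with a wide counting interval of −1.04 to −0.02.

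Of the receptors for nucleic acids, Tlr8 and Tlr9 had the largest changes of all members in KO. Tlr8, whose human counterpart is a receptor for single-stranded RNA, went from 1.53 to 2.61 log2 RPM in WT, or 2.11-fold. In KO it went from 1.38 to 2.66, or 2.43-fold. Tlr9, the receptor for unmethylated CpG DNA, went from 1.60 to 2.69 in WT and from 1.70 to 3.01 in KO, 2.13-fold and 2.48-fold. Tlr7, a sensor of single-stranded RNA, was the member not listed in WT, with means of 2.36 and 2.78. In KO it rose from 2.03 to 3.03, or 2.00-fold. The KO response of Tlr7 exceeded the WT response by 0.58 (0.17 to 0.99), and 39.8 to 80.5 reads per library stood behind its means. For Tlr8 and Tlr9 the excess was 0.20 (−0.31 to 0.70) and 0.22 (−0.25 to 0.69), within counting error.

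Of the peptidoglycan sensors, Nod2 rose by 0.94 in both genotypes, from 3.07 to 4.01 log2 RPM in WT and from 2.96 to 3.90 in KO, and Nod1 rose by 0.36 in both, or by 0.23 in WT and 0.17 in KO relative to the median of all genes. NOD2 detects muramyl dipeptide, found in nearly all bacteria, and NOD1 detects peptides typical of Gram-negative ones. Their responses differed between genotypes by 0.00 (−0.30 to 0.30) and 0.01 (−0.12 to 0.13). Myd88 rose 1.57-fold in WT, from 6.13 to 6.78 log2 RPM, and 1.29-fold in KO, from 6.13 to 6.49. Relative to the median of all genes its rise was 0.52 in WT and 0.17 in KO. The response of Myd88 in KO minus that in WT was −0.29 (−0.39 to −0.18). Myd88 overlaps Acaa1a on the opposite strand and Slc22a14 on its own strand, and whether reads were counted by strand was not given in the sources used here. None of these differences between responses was tested against the spread between mice.

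**Figure D3:**
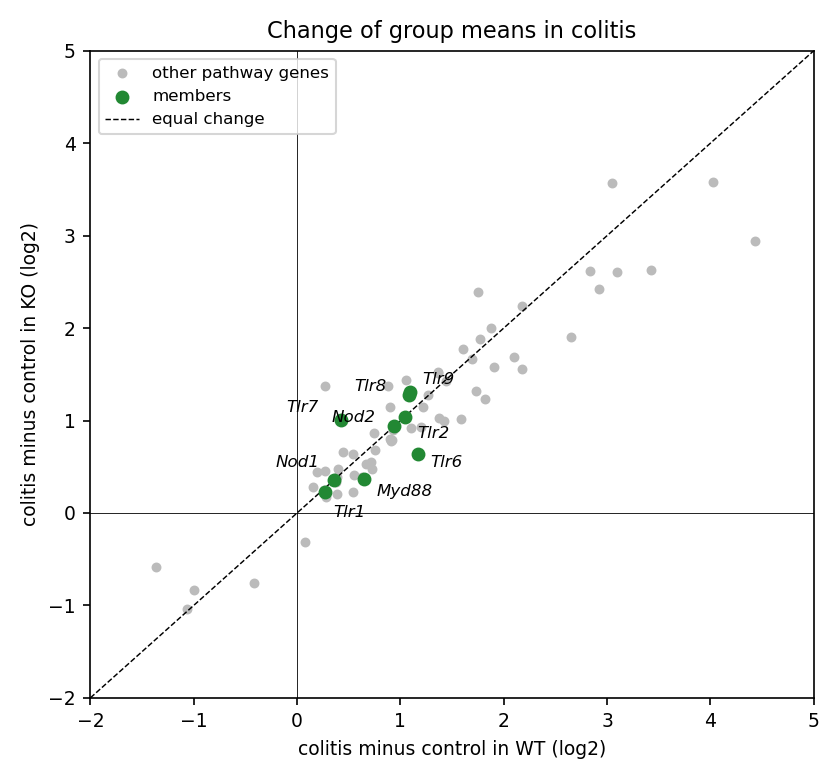
Colitis minus control difference of the authors' means in WT (horizontal axis) and Smarcad1-KO (vertical axis), both log2, for the 9 members (green, named) and 61 other genes of the pathway (grey), with a dashed line where both are equal. Tlr2, Nod1 and Nod2 lie on the line, Tlr7 above it at 0.42 and 1.00, and Tlr6 and Myd88 below it.

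To compare levels between genes, the means were divided by the merged exon length of each gene and are given as log2 RPM per kb. In WT control the order was Tlr1 at 5.16, Myd88 at 4.76, Tlr2 at 3.61, Nod1 at 3.31 and Nod2 at 0.74, then Tlr7 at 0.33, Tlr9 at −0.20, Tlr8 at −0.32 and Tlr6 at −0.53. Tlr9 and Tlr8, and Tlr8 and Tlr6, did not differ beyond counting error. The surface receptor pair of Tlr2 and Tlr1 thus stood well above Tlr6 in per-length level. In KO control Tlr2, at 2.91, stood below Nod1, at 3.34, so that these genes changed places between the genotypes. With colitis Tlr2 was above Nod1 in both genotypes, at 4.65 against 3.67 in WT and at 3.95 against 3.70 in KO. Tlr1 at 5.43 and Myd88 at 5.41 could not be told apart by counting error in WT colitis. In KO colitis they were at 5.54 and 5.12. Neighbours among the 4 lowest genes did not differ beyond counting error in KO control or WT colitis, nor did Tlr7 and Tlr8 in KO colitis. The endosomal receptors and Tlr6 stayed the lowest in every group, between −0.53 and 1.21.

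**Figure D4:**
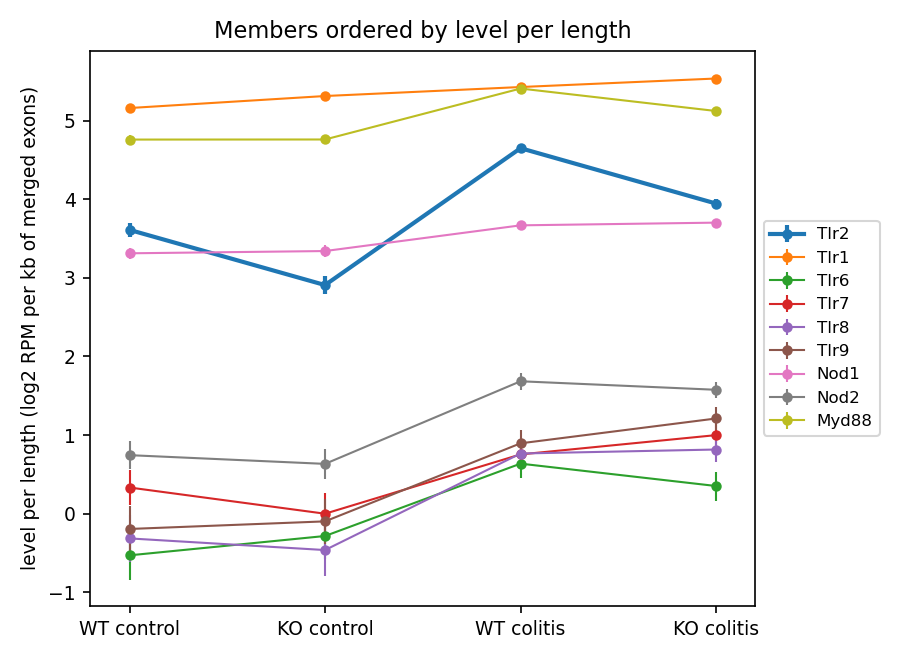
Level per length (log2 RPM per kb of merged exons, vertical axis) of each member in the 4 groups (horizontal axis), with 95% counting intervals; lines join the values of a gene and show no time course. Tlr2 (thick blue line) is above Nod1 in WT control, below it in KO control at 2.91 against 3.34, and above it in both colitis groups.

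The genes closest to each member over the 4 group means were found by the Euclidean distance of means centred on their own average, among 4896 other genes above the floor. For Tlr2 they were Gcnt4, a glycosyltransferase that branches O-glycans, at a distance of 0.161, Inhbb, the inhibin and activin beta B subunit, at 0.188, and Csgalnact1, an enzyme of chondroitin sulphate synthesis, at 0.215. Gcnt4 had control means of 2.29 log2 RPM for WT and 1.73 for KO and colitis means of 3.50 and 2.85. Other members had nearer neighbours. For Nod1 they were Gsr, glutathione reductase, at 0.012, Hsd17b12 at 0.017 and Gm26541 at 0.021. Serhl at 0.013, Otulin, a deubiquitinase of linear ubiquitin chains, at 0.025 and Psmd3, a proteasome subunit, at 0.026 were nearest to Tlr1. Myd88 had Slc24a5 at 0.014, Trim12c at 0.034 and 6530402F18Rik at 0.040, and Nod2 had Nfkbie, an inhibitor of NF-κB, at 0.020, Ecscr at 0.053 and Cd47 at 0.074. Nearest to Tlr6 were Lif, a cytokine of the IL-6 family, at 0.051, Exoc3l4 at 0.072 and Cebpd, a transcription factor of acute inflammation, at 0.079. Tlr7 was followed by Gimap1os at 0.055, Cd2, a T cell marker, at 0.059 and Has2, a hyaluronan synthase, at 0.097. For Tlr8 the genes were Gm15646 at 0.056, Arhgap30 at 0.073 and Lag3, an inhibitory receptor of T cells, at 0.075, and for Tlr9 Tbc1d10c at 0.078, Ly6g at 0.094 and Ltb, encoding lymphotoxin beta, at 0.100. By Pearson correlation 1 of these 27 genes stayed among the 3 nearest. The distances rest on 4 means and describe likeness only.

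Markers of the cells that could carry these receptors were set beside the Tlr2 result. Summed over the 8 general leukocyte markers, all of which had values, the level in control was 266 RPM for WT and 263 for KO, and with colitis 739 and 759. The KO minus WT difference of single markers lay between −0.24 and 0.18 in control and between −0.36 and 0.25 in colitis. The 9 macrophage and monocyte markers with values, of 14, summed to 891, 930, 2205 and 2181 RPM in the same order, and single markers differed by −0.20 to 0.17 in control and −0.13 to 0.24 in colitis. None of these markers was lower in KO by as much as Tlr2. The part of these cells in the Tlr2 differences was not tested.

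Neutrophil markers behaved otherwise in colitis. The 9 of 14 with values summed to 102 RPM for WT and 110 for KO in control, and to 423 and 301 with colitis. The colitis sums, 8.72 and 8.24 in log2 RPM, hold Ly6g at 7.70 in WT and 7.88 in KO. Ly6g thus weighed more in the KO sum, and the sums understate the difference of the other markers. Their median KO minus WT difference was −0.93 in colitis, from −2.77 for S100a9 to 0.19 for Ly6g, and none was listed between the genotypes. S100a8, a calcium-binding protein abundant in neutrophils, was at 5.54 log2 RPM in WT colitis and 2.88 in KO colitis. In control, 4 of the 9 markers in WT and 5 in KO were at or under the floor, among them S100a8, Cxcr2, Ltf and Mmp8, while Ly6g at 6.52 and 6.62 log2 RPM made up most of the sums. The markers Csf3r, Retnlg and Mmp9 were above the floor in both control groups, between 0.36 and 2.85 log2 RPM. Over all 9 markers, means under the floor included, the KO minus WT difference in control lay between −0.94 and 0.57. It was positive for 4 markers and negative for 5. Beside the Tlr2 difference of −0.70 in each condition, the median difference of the neutrophil markers was −0.93 in colitis. In control it was 0.05 with low means raised to the floor. That value is only the gap between the floors of KO control (−1.70) and WT control (−1.75), so it measures no difference between genotypes. Their part in the Tlr2 differences was not tested. The 5 of 9 stromal and endothelial markers with values had a median KO minus WT difference of −0.43 in colitis and 0.02 in control, and none was listed. Their part was not tested either. None of the 12 epithelial markers had values in the tables, so the share of epithelium was not analysed here.

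**Figure D5:**
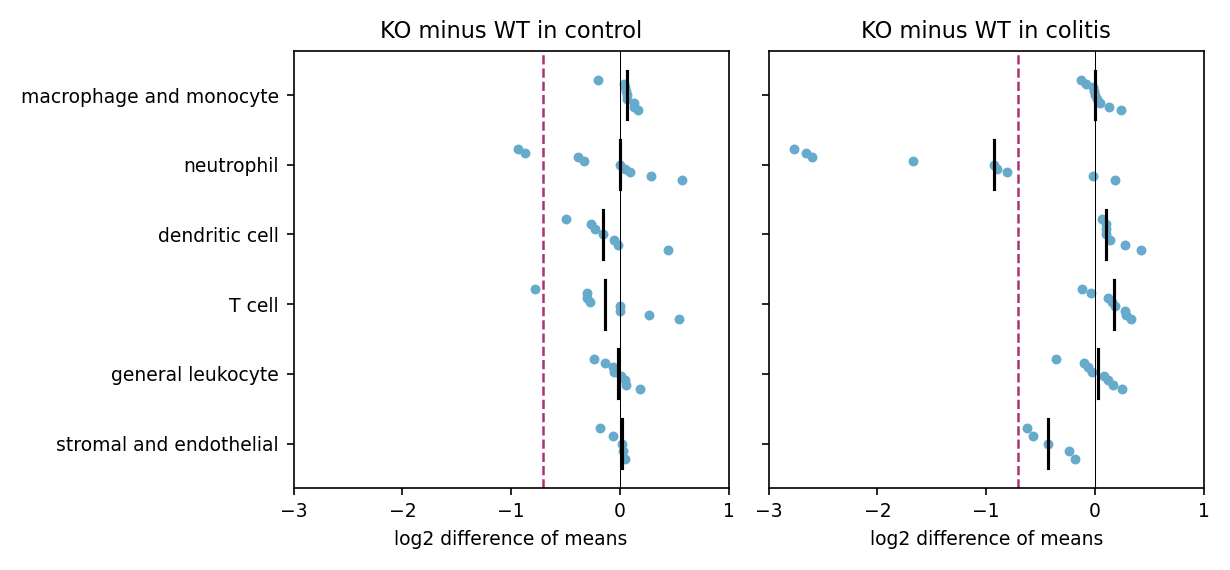
KO minus WT difference of the authors' means (log2, horizontal axis) for marker genes of 6 cell types (rows), in control (left) and colitis (right); points are genes, black bars list medians and the purple dashed line Tlr2 at −0.70. Neutrophil markers have a median of −0.93 in colitis, and 4 of them in WT control and 5 in KO control are at or under the floor, so that their control differences carry little information.

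The other genes of the pathway were taken from 9 lists by role, with 123 genes, of which 61 had values. In WT colitis 46 of the 61 rose and 3 fell, beside 36.6% and 26.4% of all genes in the tables, and in KO colitis 53 rose and 4 fell, beside 44.8% and 33.6%. These shares are the background for each list that follows. Their changes had a median of 0.93 for WT and 0.99 for KO, close to the 0.94 of the members. In neither condition was any of the 61 listed between the genotypes, where few genes were listed at all, 0.522% as higher and 0.367% as lower in control and 0.696% and 0.387% in colitis. Differences of 1 or more were seen for 1 gene in control, Pglyrp2 with 1.03, a peptidoglycan amidase near the floor, beside 1.08% of all genes. In colitis 2 genes were lower by 1 or more, Fpr1 and Fpr2, beside 2.9% of all genes.

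Among the other TLRs, 5 of 6 had values, and 3 rose in WT while 4 rose and 1 fell in KO. Tlr13, a receptor for bacterial ribosomal RNA, rose by 1.70 in WT and 1.66 in KO, from 2.65 and 2.54 log2 RPM. Tlr5, the flagellin receptor, fell by 0.75 in KO and had a difference of −0.41 in WT, where it was not listed. Tlr11, a receptor for profilin of protozoa, had the largest genotype difference of this list in colitis, at 0.84 log2 RPM in WT and 1.66 in KO, and it rose in KO, by 1.38, while the WT change of 0.27 was not listed. Tlr4 had no values in the tables and was not analysed here.

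Of 12 co-receptors and chaperones, 7 had values, with 5 rising and 1 falling in WT and 6 rising and 1 falling in KO. Cd14, which hands lipopolysaccharide and lipopeptides to TLR4 and TLR2, rose by 1.43 in WT and by 0.99 in KO. Lbp, the lipopolysaccharide-binding protein, rose by 1.91 and 1.58. Cd36, a scavenger receptor that assists the TLR2 and TLR6 pair, fell by 1.06 and 1.04. Between the genotypes Cd14 differed by 0.35 in control and −0.08 in colitis, and Cd36 by −0.06 and −0.04, none of them listed. Unc93b1, which carries the endosomal receptors to their compartment, rose by 0.92 in WT and 0.79 in KO, and is named here for its role, as is Cd14. Cd180, a relative of TLR4 found on B cells, rose by 0.88 and 1.37.

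Downstream of the receptors, both of the 2 adaptors with values, of 7, rose in each genotype. Scimp, an adaptor in antigen-presenting cells, rose 8.27-fold in WT, and by a factor of at least 11.6 in KO, where its control mean was under the floor. Of 23 genes in the list of kinases and ubiquitin ligases, 4 had values. Card9, itself neither a kinase nor a ligase, relays signals of fungal receptors and rose by 1.58 in WT and 1.02 in KO. Peli2, a ubiquitin ligase of the Pellino family, fell by 1.00 and 0.83. Ripk2, the kinase that acts for NOD1 and NOD2, and Traf6, the ligase that acts after MyD88, rose in WT by 0.63 and 0.28 and were not listed in KO, where their changes were 0.39 and 0.17; both are named for their role. All 4 transcription factors with values, of 11, rose in both genotypes, among them Irf8, a factor of myeloid cells, by 1.21 and 1.15, and Rel, a subunit of NF-κB, by 0.90 and 0.80.

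Of 21 negative regulators, 15 had values, the largest number in any of the pathway lists. In WT 11 of them rose and none fell, and in KO 13 rose and 1 fell. Socs3, a brake on cytokine signalling, had increases of 3.43 in WT and 2.62 in KO and means of 7.70 log2 RPM in WT colitis against 7.04 in KO colitis. Il1rl1, the receptor for IL-33, rose by 2.17 and 1.56 and had the largest genotype difference of the list in colitis, −0.89. Sigirr, an inhibitory member of the IL-1 receptor family, was the gene that fell in KO, by 0.32, with a change of 0.08 in WT.

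Of 17 NOD-like receptor and inflammasome genes, 11 had values, with 7 rising in WT and all 11 in KO. From control means under the floor, Nlrp12 rose at least 5.23-fold (WT) and 3.60-fold (KO), and Nlrp3, the sensor of a widely studied inflammasome, rose by 2.65 and 1.90. All 7 of 13 cytosolic nucleic acid sensors with values rose in both genotypes, with Zbp1, a sensor of Z-form nucleic acids, rising by 2.83 and 2.61. Of 13 peptidoglycan recognition and formyl peptide receptor genes, 6 had values, with 4 rising and 1 falling in WT and 5 rising in KO. Fpr2, a receptor for formyl peptides on phagocytes, rose by 4.43 in WT and 2.94 in KO. Its control means, −1.62 and −1.23 log2 RPM, lay near the floor, and counting error alone was 0.91 and 0.83 to either side. Fpr1 rose 7.56-fold in WT, from −1.46 log2 RPM, and, from a control mean under the floor, at least 3.84-fold in KO. Their KO minus WT differences in colitis were −1.11 and −1.22, on the side of the neutrophil markers, and were not listed. Slc15a1, a transporter of bacterial di- and tripeptides that delivers NOD ligands into epithelial cells, fell by 1.37 in WT and had a change of −0.58 in KO, where it was not listed.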

How the data were processed

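Per the labels and the methods of the study, 100-base reads of total RNA from 16 colon samples (BGISEQ-500) were mapped to GRCm38 with HISAT2 2.1.0, according to the submitters' processing notes. The labels give single-end reads and the methods paired-end reads. RNA had been precipitated with LiCl to remove DSS. Uniquely mapped reads over merged exons were counted in SeqMonk, after removal of ribosomal RNA reads, which had contaminated some libraries. The 4 deposited tables each hold the genes past an adjusted p of 0.05 in 1 DESeq2 comparison, with the authors' p-values, which were not used, and log2 group means in RPM made by the authors, without length correction and with a count of 0 set to 0.9 read. All values of a gene were the same in each table that held it.

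Library sizes were recovered from the steps that whole reads leave in low means (100% on such steps, tolerance 2e-05 log2) and were checked on simulated data. Differences are between log2 means. Counting intervals assume Poisson reads. Shares of genes are of the 5171 in at least 1 table. Exon lengths come from the GENCODE annotation of GRCm38 and promoters from RefSeq. Work was done in Python 3.11.15 with pandas 2.3.3 and numpy 2.4.6.

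Members and lists were chosen with earlier results of these data known. Named are all members found, of each list the largest rise and largest fall in WT colitis and the largest genotype difference in colitis, up to 4 genes per list for their role, and the 3 nearest genes of each member. Smarcad1, Pglyrp2, Sigirr, Nlrc5, Ciita, Ifih1 and the single markers named, other than S100a9, were chosen after their values were seen. Alternatives were centring on the median of all genes, raising low means to 3 reads, the last table's row, the longest transcript, a difference of 0.5, a filter on low means, and Pearson correlation.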

Additional observations from a re-analysis of the deposited data

How the results depend on the processing

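Centring on the median of all genes lowered the rise of Tlr2 in colitis to 0.91 in WT and 0.85 in KO, and moved those of Tlr1 (0.14 and 0.03), Nod1 (0.23 and 0.17) and Myd88 (0.52 and 0.17), and left the other 37 member differences within counting error of their values. With a difference of 0.5 in place of 1, 3 of the 61 pathway genes were lower in KO control, beside 3.46% of all genes in the tables. In KO colitis 3 were higher and 6 lower than in WT colitis, beside 5.43% and 10.3% of all genes. With colitis in KO 4 were lower, for which the share of all genes is not given here. Raising low means to 3 reads and taking the row of the last table moved none of the 45 member differences, and a filter on low means moved no pathway count by over 1.5 times. With the longest transcript, 12 of the levels per length, those of Tlr1, Nod1 and Myd88, moved by more than counting error, while the order of the members was the same in all 4 groups. By Pearson correlation 1 of the 27 nearest genes stayed among the 3 nearest. No paired analysis was possible because the tables hold group means, and for the same reason no replicate was left out. Without single libraries, differences of the size seen for Tlr6 or Tlr7 cannot be set against the spread between mice.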

Other observations

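Nlrc5, the activator of MHC class I genes, rose by 3.09 in WT and 2.60 in KO, and Ciita, the activator of MHC class II genes, rose by 1.88 and 2.00, both named after their values were seen. Ifi204, an interferon-induced DNA sensor, rose 4.28-fold in WT and 3.23-fold in KO, with colitis means of 4.45 and 3.85 log2 RPM, a difference that was not listed. Other sensors of the same list had smaller changes, such as Ifih1, a sensor of double-stranded RNA, with 0.38 in WT and 0.33 in KO.

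Lymphocyte markers had higher means with colitis as well. The 8 T cell markers summed to 30.4 RPM for WT and 30.2 for KO in control, and to 80.5 and 88.7 with colitis. Single T cell markers differed between KO and WT by −0.78 to 0.54 in control, 3 higher and 5 lower. In colitis they differed by −0.12 to 0.33, 6 higher and 2 lower. The 7 dendritic cell markers with values, of 9, summed to 68.3, 63.7, 149 and 160 RPM in the same order. Between KO and WT they differed by −0.50 to 0.44 in control, 1 higher and 6 lower. In colitis all 7 were higher in KO, by 0.06 to 0.42. No T cell or dendritic cell marker was listed between the genotypes. Of 8 B cell markers 1 had values, Cd79b, a chain of the B cell receptor complex, at 3.21, 3.42, 3.44 and 4.35 log2 RPM. The 2 smooth muscle markers with values, of 6, summed to 3619, 3358, 2345 and 2316 RPM.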
